A study of Rattus norvegicus with 35 samples.

Results

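Oxidative phosphorylation is the pathway by which mitochondria make most of the ATP that a beating heart cell uses. Complexes I to IV, the respiratory chain, pass electrons from NADH and succinate to oxygen and pump protons across the inner membrane, and complex V, ATP synthase, lets the protons flow back to make ATP. Most of the subunits are encoded in the nucleus and imported, and a few of them exist in forms that are made mainly in heart and skeletal muscle. The genes described here were measured in neonatal rat ventricular myocytes (NRVMs), a primary culture of heart muscle cells, that were stretched in cycles or left at rest. The genes were chosen by name: all probe sets whose platform annotation gave a single symbol beginning with Ndufa, Ndufb, Ndufc, Ndufs, Ndufv, Uqcr, Cox4, Cox5, Cox6, Cox7, Cox8 or Atp5, or equal to Sdha, Sdhb, Sdhc, Sdhd or Cyc1, with the brightest probe set kept for each gene. This gave 87 of 14217 genes, read by 97 of 31042 probe sets. Of these, 78 encode subunits: 34 of complex I, 4 of complex II, 8 of complex III, 17 of complex IV (with Ndufa4 and its relative Ndufa4l2) and 15 of complex V. The other 9 match the names but encode assembly factors, a supercomplex factor, an inhibitor and a pseudogene, and were kept apart. Another 7 probe sets read several genes at once, among them those of Cox7a2, Atp5mc1 and Uqcrb, and were left out of the counts. The subunits encoded in mitochondrial DNA do not match these names.

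All cells came from Sprague-Dawley rats 2 to 4 days old and were plated on collagen-coated flexible membranes, at first with serum and later without it. Stretched cultures had been pulled in cycles for 1, 4, 12, 24 or 48 h by vacuum under the membrane, and unstretched control cultures stood beside them. There were 35 arrays (Affymetrix rat genome arrays), 5 for each of 7 groups: 1, 4 and 12 h of stretch with their own unstretched control form the first set, and 24 and 48 h with theirs form the second. Within a set, all durations were measured against one group of unstretched arrays. Each set was fitted by itself, and no level is compared across the sets. The labels name replicates but do not say whether each was a separate culture. The study's methods call them biological replicates, and p-values measure the spread between these arrays only.

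Values are log2 of the deposited intensities, and a change is the stretched mean minus the control mean on that scale. A gene was called at an adjusted p under 0.05 (limma's moderated test, Benjamini-Hochberg over all 31042 probe sets), and "rose", "fell", "higher" and "lower" are used of called genes only. Array medians lay between 88.7 and 95.8 intensity units, and were lower in stretched than in control arrays by 0.023 to 0.051 on the log2 scale, depending on the time. The cardiomyocyte markers were bright in both groups, with Tnnt2 at a mean of 13.85 after 48 h of stretch and 13.91 in its control, and so were fibroblast markers, with Col3a1 at 13.74 and 13.90. Of the 78 subunits, 72 had a mean log2 value of at least 10, 20 of them of at least 13, and the median residual SD of the member genes was 0.0443 in the first set and 0.057 in the second.

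The start regions of some of these genes hold letters read by the factors known to act on nuclear genes for mitochondrial proteins. RefSeq windows on build GRCr8, from 250 bases before to 50 after the annotated start, were matched for 78 of the 87 genes by gene ID. The motif AAGATGGCG, read by YY1, stood in 14.1% of the member windows and 1.73% of all 33469 windows, and CGCATGCG, the core of the NRF1 motif, in 10.26% and 1.66%. CCGGAAG, an ETS motif read by GABP, stood in 28.21% of member windows and 8.75% of all windows, and AAGGTCA, a half-site read by oestrogen-related receptors, in 14.1% and 4.61%. Over the 21842 windows of protein-coding genes, a closer background, the shares were 2.07% (YY1), 2.11% (NRF1), 10.74% (GABP) and 3.78% (the half-site). Both strands were searched, none of the 4 motifs contains another, and 40 of the 78 windows held none of them. These are matches of letters and not measured binding. The windows below belong to genes on which the results turn: the member with the largest fall, 2 complex I subunits with large falls, 1 member each of complexes II and III, and a complex V subunit that holds 3 of the motifs. Capitals mark the motifs (a GABP match on the other strand reads CTTCCGG). In Cox8b, which holds none of the 4, they mark TATAAA, which was looked for after the sequence had been seen. Within the bases from 40 to 16 before the start, TATAAA on the coding strand stood in 1 of 78 member windows (Cox8b) and in 1.35% of all windows.
Cox8b, chr1:205408274-205408353, minus strand, 80 bases before the start: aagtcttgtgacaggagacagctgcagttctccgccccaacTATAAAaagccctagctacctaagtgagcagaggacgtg
Ndufs7, chr7:10110486-10110578, minus strand, from 80 before to 13 after the start: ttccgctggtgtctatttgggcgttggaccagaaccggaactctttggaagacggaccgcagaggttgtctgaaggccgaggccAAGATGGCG
Ndufb7, chr19:41477292-41477371, minus strand, 80 bases before the start: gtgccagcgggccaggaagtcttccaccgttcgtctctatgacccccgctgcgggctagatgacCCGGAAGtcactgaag
Sdhd, chr8:59850642-59850721, minus strand, 80 bases before the start: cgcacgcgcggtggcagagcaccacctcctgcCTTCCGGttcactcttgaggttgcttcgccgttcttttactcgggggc
Uqcrc2, chr1:184599160-184599239, plus strand, 80 bases before the start: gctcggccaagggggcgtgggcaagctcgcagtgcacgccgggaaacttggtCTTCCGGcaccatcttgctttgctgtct
Atp5pf, chr11:37375177-37375276, minus strand, 100 bases from 175 to 76 before the start: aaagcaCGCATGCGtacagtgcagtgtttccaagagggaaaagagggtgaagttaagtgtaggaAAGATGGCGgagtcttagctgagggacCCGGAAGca

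In response to mechanical stretch, subunits of all 5 complexes fell, in small steps, and the number that fell was largest at 48 h. At 1 h, 2 of 78 subunits were lower (background over all probe sets 7.52%) and 0 were higher (6.32%). At 4 h, 17 were lower (15.2%) and 1 was higher (14.2%), and at 12 h, 36 were lower (16.9%) and 1 was higher (16.3%). In the second set, 16 were lower (9.13%) and 0 higher (9.14%) at 24 h, and 50 were lower (16.0%) and 0 higher (16.9%) at 48 h. At an unadjusted p under 0.05, limma had 0, 1 and 0 subunits higher at 1, 24 and 48 h, and ordinary analysis of variance called 0 higher at each of these times. In bulk RNA, fewer myocytes and less of a transcript per myocyte cannot be told apart, and the markers of the cell types are given at the end. Most subunits are bright, and among the 2456 genes of the array with a mean log2 value of at least 10, 10.6%, 20.5%, 22.6%, 12.7% and 22.3% were lower from 1 to 48 h. The subunits called lower were 2.56%, 21.8%, 46.2%, 20.5% and 64.1% of the 78. Set against the bright genes, the share of subunits was smaller at 1 h, close to the background at 4 h and larger at 12, 24 and 48 h. The counts depended on the processing at every time. At 12 h, 24 subunits were lower with arrays centred on their medians and 52 with quantile normalization within each set. At 48 h these counts were 34 and 52. At 1 h, 0 subunits were lower with arrays centred on their medians, 6 to 8 with array weights, the filter on dim probe sets or 1 probe set per gene, and 11 with ordinary analysis of variance or an intensity trend. At 4 h the centred count was 7, and ordinary analysis of variance gave 33. The background under these settings was not computed. At 24 h, centring gave 10, leaving out single arrays gave 10 to 18, and ordinary analysis of variance gave more.

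Over the 5 durations, from the shortest to the longest, the median change of the 78 subunits was -0.036, -0.057, -0.103, -0.078 and -0.165. Over all 14217 genes the medians were 0.002, -0.004, 0, 0.03 and 0.044. At 48 h, 76 of 78 subunits had a mean below that of control, the 2 exceptions being Cox6a1 (0.02) and the dim Cox7b2 (0.04), neither of them called. Values of all 5 stretched arrays lay under those of all 5 control arrays for 43 of 78 subunits at 12 h (13.9% of all probe sets) and for 54 at 48 h (12.2%). The sizes were small: the subunits called lower at 48 h fell to a median of 0.849-fold of control. A single member passed 1.5-fold, Cox8b at 48 h, where 4.64% of all probe sets were lower by that limit. Of the 36 subunits lower at 12 h and the 50 lower at 48 h, which have different control arrays, 29 were lower at both times. With 46.2% and 64.1% of the 78 lower, unrelated lists of this size would also share many genes. The share of all probe sets lower at both times was not computed. No call against control was made at any time for 20 subunits, 8 of them of complex I and 7 of complex IV.

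**Figure D1:**
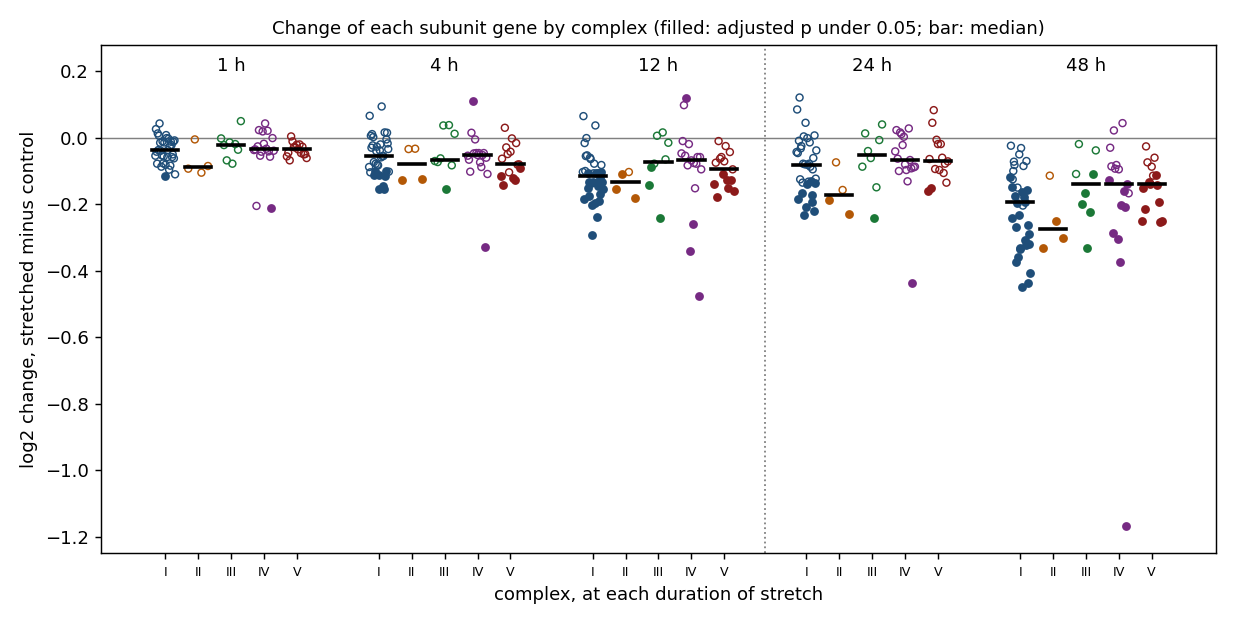
log2 change (stretched minus control, y axis) of each subunit gene in complexes I to V at each duration of stretch (x axis). Each point is a gene, filled where the adjusted p is under 0.05, black bars are medians over the genes of a complex, and the dotted line parts the 2 array sets. The medians lie below 0 in each complex and time (complex III at 1 h reads 0.009 once arrays are centred on their medians), lowest for complex II at 48 h (-0.275), and Cox8b stands apart at 48 h (-1.17).

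Complex I, NADH dehydrogenase, is where most electrons enter the chain, and it had 1, 8, 20, 10 and 23 of 34 subunits lower at 1, 4, 12, 24 and 48 h and none higher at any of these times. The lower ones were 2.94%, 23.5%, 58.8%, 29.4% and 67.6% of its subunits, beside 7.52%, 15.2%, 16.9%, 9.13% and 16.0% of all probe sets. All of its subunits had a mean log2 value of at least 10. Among all genes that bright, 10.6%, 20.5%, 22.6%, 12.7% and 22.3% were lower, so that the share at 4 h was close to this background. Its core subunits, those that are shared with bacteria and carry the flavin and the iron-sulfur clusters, were all lower at 48 h (6 of 6 on the array, median change -0.314). Of its 28 accessory subunits, 17 were lower, with a median of -0.169. At 12 h the core and accessory medians were alike, at -0.114 and -0.12. In the step from 24 to 48 h, 4 of the 6 core subunits were lower at 48 h than at 24 h.

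Ndufs7, a core iron-sulfur subunit next to the ubiquinone site, had log2 values of 11.95, 11.89, 11.81, 11.83 and 11.82 at 48 h, against 12.27, 12.36, 12.28, 12.27 and 12.31 in the control arrays. The groups were well apart, and Ndufs7 fell by 0.44 (SE 0.0474, adjusted p 2.54e-06), to 0.738-fold. At 24 h it had fallen by 0.22 (adjusted p 0.00392), and the 48 h level was lower than that at 24 h by another 0.22 (adjusted p 0.0104). In the first set it was near control at 4 h (-0.01, adjusted p 0.943) and lower at 12 h (-0.12, adjusted p 0.0149), a call that was lost when stretched replicate 2 was left out (adjusted p 0.0521). Ndufs1, the largest core subunit, fell at 4, 12, 24 and 48 h, by 0.31 at 48 h, and Ndufs3 fell at 24 h (-0.17) and 48 h (-0.32). Ndufv1, which binds NADH and the flavin, was lower at 48 h (-0.29), as were Ndufv2 (-0.32) and Ndufs8 (-0.26).

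Among the accessory subunits, Ndufb7, on the intermembrane side of the membrane arm, had the largest fall of complex I. Its values were 11.92, 11.86, 11.87, 11.89 and 11.88 at 48 h, against 12.28, 12.39, 12.23, 12.40 and 12.36 in control arrays. The 5 stretched values lay close together, and none reached the lowest control. Ndufb7 fell by 0.45 (SE 0.05, adjusted p 3.44e-06), which was lower than its 24 h level by 0.32 (adjusted p 0.00124). At 12 h it had fallen by 0.19 (adjusted p 0.000402), and it was lower at 12 h than at 4 h by 0.14 (adjusted p 0.027).

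Ndufb3, another subunit of the membrane arm, was called lower at all 5 times, with falls of 0.11, 0.15, 0.29, 0.21 and 0.34 from 1 to 48 h. Its 12 h values were 12.50, 12.37, 12.43, 12.41 and 12.47, against 12.74, 12.77, 12.73, 12.67 and 12.74 in control arrays, with a clear gap between the groups. The fall at 12 h was the largest of complex I at that time (adjusted p 2.38e-06), followed by that of Ndufc1 (-0.24). The call at 1 h (adjusted p 0.0406) was lost in 8 of the 20 fits that each left out an array of the set. At 4 h the largest falls of the complex were those of Ndufs1 (-0.16) and Ndufb3, and at 24 h those of Ndufb10 (-0.23) and Ndufs7. Ndufv3, on the NADH-binding arm, fell by 0.41 at 48 h and was lower than at 24 h by 0.37 (adjusted p 0.00144), whereas its 24 h change was -0.04 (adjusted p 0.733). This pattern belongs to its brighter probe set. The dimmer one (mean log2 7.73) had linear intensities of 221.2, 217.4, 209.7, 257.9 and 200.2 at 48 h. At 24 h it had 212.3, 215.3, 227.7, 178.9 and 222.3, so that it did not show the step down from 24 to 48 h. Ndufa9, an accessory subunit near the ubiquinone site, fell by 0.37 at 48 h. Its much dimmer probe set (control mean 6.11) fell by 0.42 then but was not called at 4 or 12 h, when the brighter one was.

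At the other end, 11 complex I subunits were not called at 48 h, with changes that still lay below 0, and 8 subunits of the complex were called at no time. Ndufa11, Ndufb5 and Ndufb2 had the smallest changes at 48 h (-0.02, -0.03 and -0.05). Ndufb2 and Ndufs4 were lower at 12 h (-0.20 and -0.19) and not called at 48 h.

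**Figure D2:**
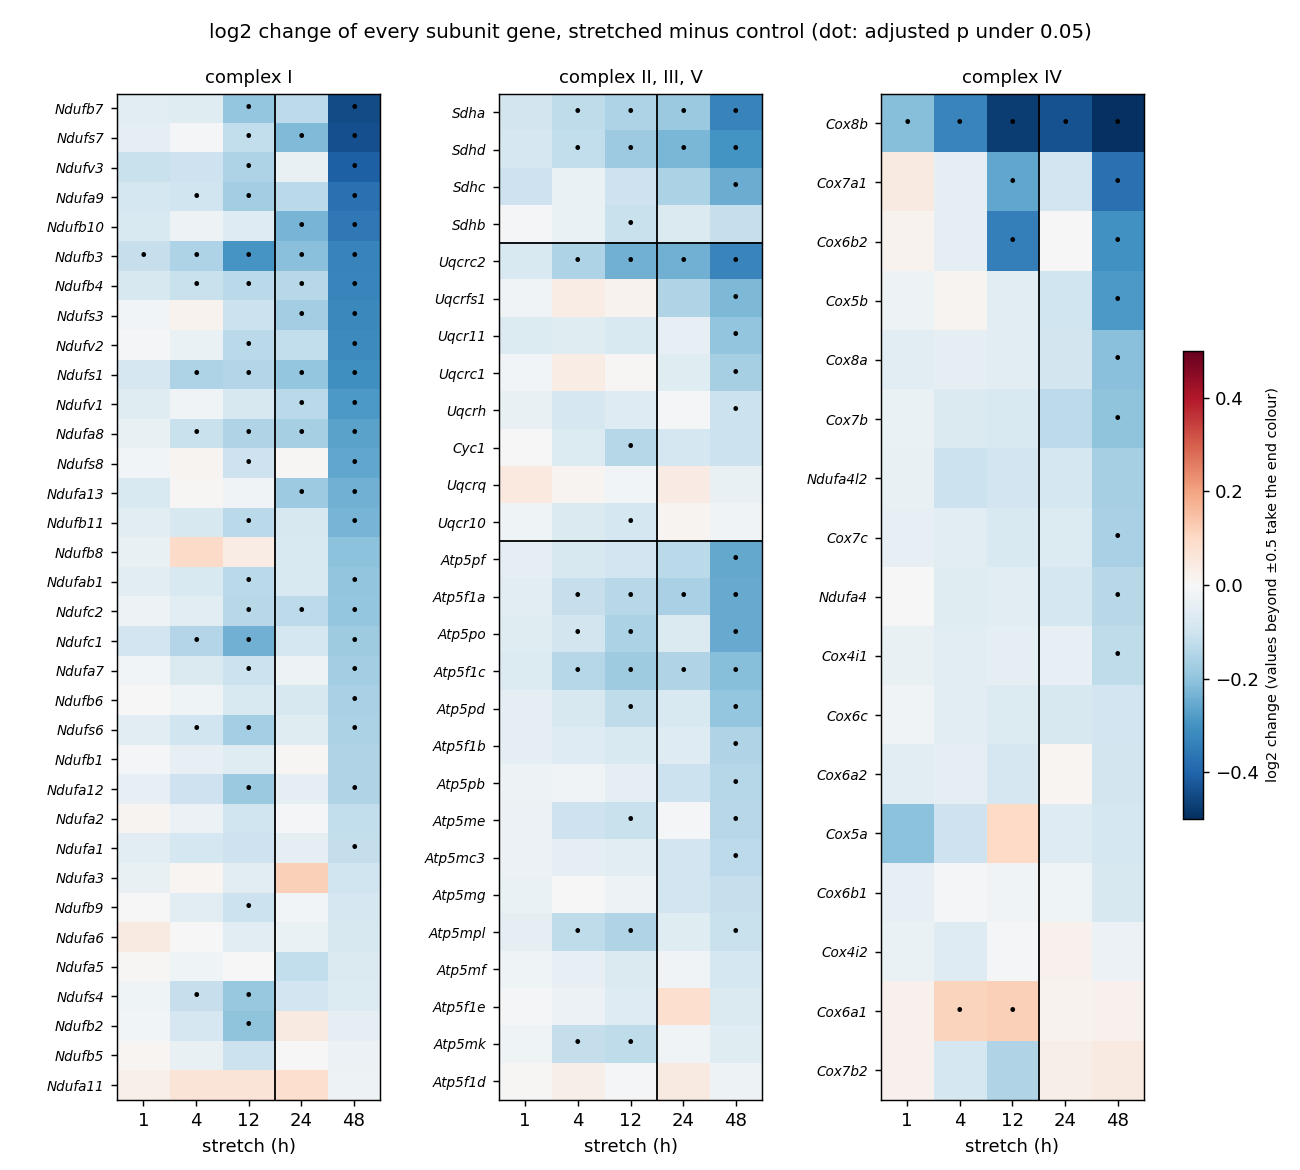
log2 change (colour, stretched minus control) of all 78 subunit genes, in rows ordered by their 48 h change within a complex, at 1, 4, 12, 24 and 48 h of stretch in columns; dots mark an adjusted p under 0.05 and the upright line parts the 2 array sets. Blue, for lower, fills nearly all of the 48 h columns, with 50 of 78 genes called lower and 0 higher, and the only 2 dots on red are those of Cox6a1 at 4 and 12 h.

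Complex II, succinate dehydrogenase, links the citric acid cycle to the chain and is the one complex encoded wholly in the nucleus. Of its 4 subunits, 0, 2, 3, 2 and 3 were lower at 1, 4, 12, 24 and 48 h, and its median at 48 h, -0.275, was the lowest of the complexes. The shares lower were 0%, 50%, 75%, 50% and 75%, though of 4 genes only. Sdha, the flavoprotein, had 12.16, 12.17, 12.11, 12.20 and 12.08 at 48 h, against 12.49, 12.45, 12.50, 12.46 and 12.48 in control arrays. No stretched value came near the controls, and Sdha fell by 0.33 (SE 0.0539, adjusted p 0.000138), to 0.794-fold. It had fallen by 0.13 at 4 h, 0.15 at 12 h and 0.19 at 24 h as well, the 24 h call being lost without control replicate 1 (adjusted p 0.0524), stretched replicate 2 (0.0605) or stretched replicate 4 (0.0588).

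Sdhd, a membrane anchor, had 12.36, 12.25, 12.40, 12.40 and 12.39 at 48 h, against 12.70, 12.67, 12.71, 12.65 and 12.59 in control arrays. It fell at 4, 12, 24 and 48 h, by 0.12, 0.18, 0.23 and 0.30 (adjusted p 0.000208 at 48 h), with the lowest of the stretched values in replicate 2. A second Sdhd probe set of similar brightness was called at 12 h (-0.12) and 48 h (-0.40) but not at 4 or 24 h. Sdhc, the other anchor, was lower at 48 h only (-0.25, adjusted p 0.00246), with -0.10 (adjusted p 0.051) at 12 h. Sdhb, the iron-sulfur subunit, had linear intensities of 6219, 6199, 5856, 6168 and 5653 at 48 h, against 6835, 6387, 6995, 6004 and 6374 in control arrays, groups that overlap (log2 change -0.11, adjusted p 0.118). It was lower at 12 h (-0.11, adjusted p 0.0186), a call lost without stretched replicate 3 (adjusted p 0.0529).

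Complex III, the cytochrome bc complex, takes electrons from ubiquinol to cytochrome c, and had 0, 1, 3, 1 and 5 of 8 subunits lower. The shares were 0%, 12.5%, 37.5%, 12.5% and 62.5%. At 4 and 24 h they were close to those of all probe sets (15.2% and 9.13%). Uqcrc2, a core protein without a redox group, fell at 4, 12, 24 and 48 h, by 0.16, 0.24, 0.24 and 0.33, the 24 h call being lost in 5 of 15 fits that each left out an array. Its values were 12.66, 12.68, 12.56, 12.68 and 12.52 at 48 h, against 12.98, 12.86, 13.06, 12.89 and 12.97 in control arrays, so that the highest stretched value lay below the lowest control. The second probe set of Uqcrc2 (control mean 11.57 in the second set) was not called at any time and read 0.02 at 12 h, -0.56 at 24 h and -0.52 at 48 h. The probe sets of this gene thus disagreed at 12 h. Uqcrfs1, the Rieske iron-sulfur protein, was near control through 12 h (0.02) and lower at 48 h (-0.22, adjusted p 0.00436). Cyc1, cytochrome c1, was lower at 12 h (-0.14) and had -0.11 at 48 h without a call. The core and redox subunits had a median of -0.195 at 48 h with 3 of 4 lower, and the small subunits -0.073 with 2 of 4 lower.

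Complex IV, cytochrome c oxidase, hands the electrons to oxygen, and it was the complex with the widest range of changes. It had 1, 1, 3, 1 and 9 of 17 subunits lower at 1, 4, 12, 24 and 48 h. These were 5.88%, 5.88%, 17.6%, 5.88% and 52.9% of the complex, beside 7.52%, 15.2%, 16.9%, 9.13% and 16.0% of all probe sets. Only at 48 h did complex IV stand clearly above that background. Its largest falls were in subunits with tissue forms. Cox8b, the heart and skeletal muscle form of subunit VIII in rodents, had 11.63, 11.66, 11.41, 11.54 and 11.77 at 48 h, against 12.77, 12.84, 12.82, 12.79 and 12.62 in control arrays. This gap was wider than that of any other member, and Cox8b fell by 1.17 (SE 0.0747, 95% interval -1.325 to -1.008, adjusted p 1.65e-08), to 0.445-fold. The second largest fall among the subunits at 48 h was that of Ndufb7, -0.448.

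The fall of Cox8b was already present at the earlier times. Its values were 11.43, 11.47, 11.44, 11.46 and 11.60 after 1 h of stretch, 11.48, 11.48, 11.29, 11.41 and 11.16 after 4 h, and 11.38, 11.11, 11.21, 11.11 and 11.26 after 12 h, against 11.83, 11.76, 11.66, 11.54 and 11.68 in control arrays. At 4 and 12 h no stretched value reached the lowest control, and at 1 h a single one did. The falls were 0.21 at 1 h (adjusted p 0.0437), then 0.33 (adjusted p 0.000849) and, after 12 h, 0.48 (adjusted p 1.43e-05). The call at 1 h was lost in 11 of the 20 fits that each left out an array of the set. At 24 h it had 12.53, 12.21, 12.36, 12.36 and 12.21, all below its controls, and fell by 0.44 (adjusted p 0.000678). The level at 48 h was lower than at 24 h by 0.73 (adjusted p 5.11e-05), the largest such difference of any subunit.

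Cox8a, the form of the same subunit found in most tissues, fell by 0.21 at 48 h (adjusted p 0.00072) and was not called before. Its values at 48 h were 13.06, 13.02, 13.01, 13.08 and 13.10, against 13.29, 13.27, 13.21, 13.28 and 13.27 in control arrays. The difference between the changes of both forms was tested within arrays for 5 isoform pairs at 5 times (25 exact two-sided permutation tests, n = 5 arrays per group, smallest p possible 0.00794, adjusted over the 25). Cox8b fell by more than Cox8a at 4 h (difference -0.28), 12 h (-0.42), 24 h (-0.34) and 48 h (-0.96, exact 95% interval -1.117 to -0.802), each with a p of 0.00794 and an adjusted p of 0.0284, and at 1 h the difference was -0.15 (adjusted p 0.0595).

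Cox6a1, the widespread form of subunit VIa, was the one subunit that rose. It had 12.89, 13.05, 12.90, 12.97 and 12.94 at 4 h and 13.01, 12.94, 12.97, 12.86 and 13.02 at 12 h, against 12.85, 12.82, 12.83, 12.83 and 12.88 in control arrays. The groups did not overlap at 4 h (0.11, adjusted p 0.0464) and did at 12 h (0.12, adjusted p 0.0283). With quantile normalization within the set neither call was made, and leaving out single arrays ended the 4 h call in 12 fits of 20 and the 12 h call in 6. Cox6a2, the heart and muscle form, was among the brightest members, at 13.67, 13.66, 13.57, 13.64 and 13.53 at 48 h against 13.72, 13.70, 13.72, 13.69 and 13.71 in control arrays, and it was called at no time (-0.09 at 48 h, adjusted p 0.0992). Its change was lower than that of Cox6a1 at 4 h (-0.16), 12 h (-0.20) and 48 h (-0.12), with exact p of 0.00794, 0.00794 and 0.0159 and adjusted p of 0.0284, 0.0284 and 0.0442, and at 24 h the difference was -0.01 (interval -0.072 to 0.062).

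Cox6b2, known as a testis form of subunit VIb, was dim here. It had 8.23, 7.87, 8.10, 7.89 and 8.10 at 12 h, against 8.37, 8.40, 8.36, 8.44 and 8.31 in control arrays, and fell by 0.34 at 12 h (adjusted p 0.000726) and by 0.30 at 48 h (adjusted p 0.0193). The 48 h call was lost without control replicate 4 (adjusted p 0.0524) or stretched replicate 2 (adjusted p 0.0552). It was lower at 12 h than at 4 h by 0.29 (adjusted p 0.0104). Cox6b1, its widespread partner, was called at no time, and the change of Cox6b2 was lower than that of Cox6b1 at 12 h (-0.32, adjusted p 0.0284) and 48 h (-0.22, adjusted p 0.0442, both exact permutation tests). For Cox4i2 and Cox4i1, and for Ndufa4l2 and Ndufa4, no difference passed the test at any time. At 48 h the differences were 0.10 (interval -0.203 to 0.373) and -0.03 (interval -0.286 to 0.211), so that differences of about the size seen for Cox6b2 remained possible.

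**Figure D3:**
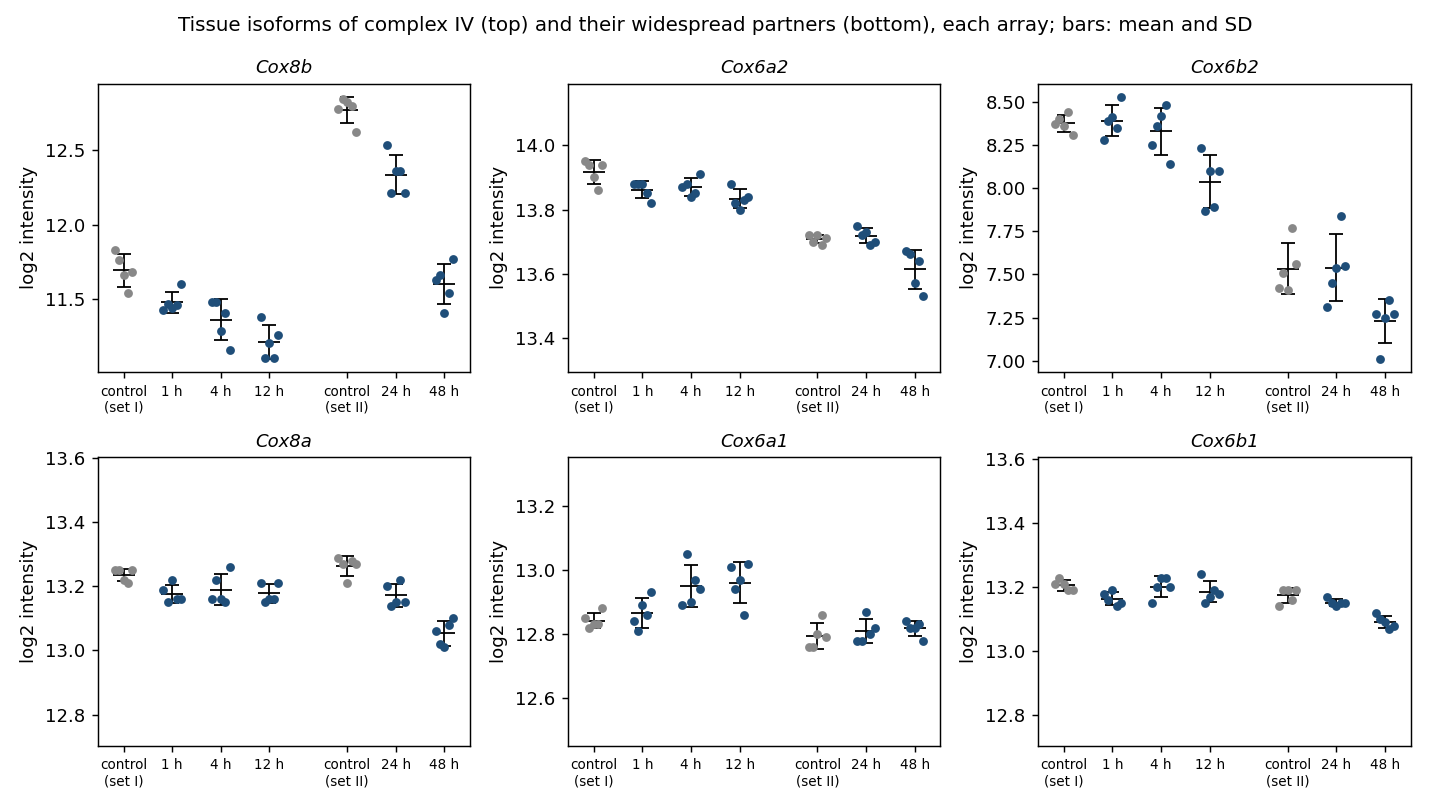
log2 intensity (y axis) of 3 tissue forms of complex IV subunits (top row) and of their widespread partners (bottom row) on each of the 35 arrays, with group means and SD (n = 5), in control arrays and after each duration of stretch (x axis). The Cox8b values at 48 h lie between 11.41 and 11.77, all below the control arrays of that set, while those of Cox8a lie between 13.01 and 13.10; each panel has its own range.

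Cox7a1, the heart and muscle form of subunit VIIa, was also dim. At 48 h it had 7.49, 7.38, 7.59, 7.54 and 7.59, against 7.90, 7.80, 7.90, 7.91 and 7.94 in control arrays, without overlap. The 48 h fall was 0.37 (adjusted p 4.14e-05), there was one of 0.26 at 12 h (adjusted p 0.00606), and the level at 48 h was lower than at 24 h by 0.28 (adjusted p 0.00494). The probe set of its partner Cox7a2 also reads a second gene and was not compared. Among the remaining subunits Cox5b, which has a single form, fell by 0.29 at 48 h and was lower than at 24 h by 0.19 (adjusted p 0.0363), and Cox4i1, Cox7b, Cox7c and Ndufa4 fell by 0.13 to 0.20. The single-gene probe set of Cox5a was dim and was called at no time. A bright probe set that reads Cox5a and a second gene was left out (-0.06 at 48 h).

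Complex V had 0, 5, 7, 2 and 10 of 15 subunits lower. The shares were 0%, 33.3%, 46.7%, 13.3% and 66.7%, that at 24 h being close to the background (9.13% of all probe sets, 12.7% of bright genes). All 4 subunits of the peripheral stalk, which holds the catalytic head still, were lower at 48 h (median -0.223), beside 3 of 5 of the F1 head (-0.151) and 3 of 6 of the membrane part (-0.114). Atp5pf, of the stalk, had 12.41, 12.41, 12.32, 12.46 and 12.31 at 48 h, against 12.61, 12.62, 12.66, 12.63 and 12.67 in control arrays. It fell by 0.25 (SE 0.0503, adjusted p 0.000838), with no overlap between the groups, and was called at no other time. Atp5po, the stalk subunit that sits on the head, fell by 0.25 at 48 h and was lower than at 24 h by 0.18 (adjusted p 0.0113). Its second probe set was dim (control mean 5.22 in the second set) and was called at no time.

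In the head, Atp5f1a, the alpha subunit, had 13.07, 13.06, 13.02, 13.04 and 13.03 at 48 h, against 13.34, 13.27, 13.29, 13.29 and 13.29 in control arrays, and fell by 0.25 (adjusted p 0.000866). It and Atp5f1c, the gamma subunit of the turning shaft, were lower at 4, 12, 24 and 48 h, though the 24 h call of Atp5f1a (-0.16) was lost in 8 of 15 fits that each left out an array. Atp5f1c fell by 0.14, 0.18, 0.15 and 0.21. Atp5f1d and Atp5f1e were called at no time and had -0.03 and -0.07 at 48 h. Atp5mpl (-0.13) and Atp5f1c were the largest falls of the complex at 4 h, and Atp5f1c and Atp5po (-0.16) at 12 h.

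**Figure D4:**
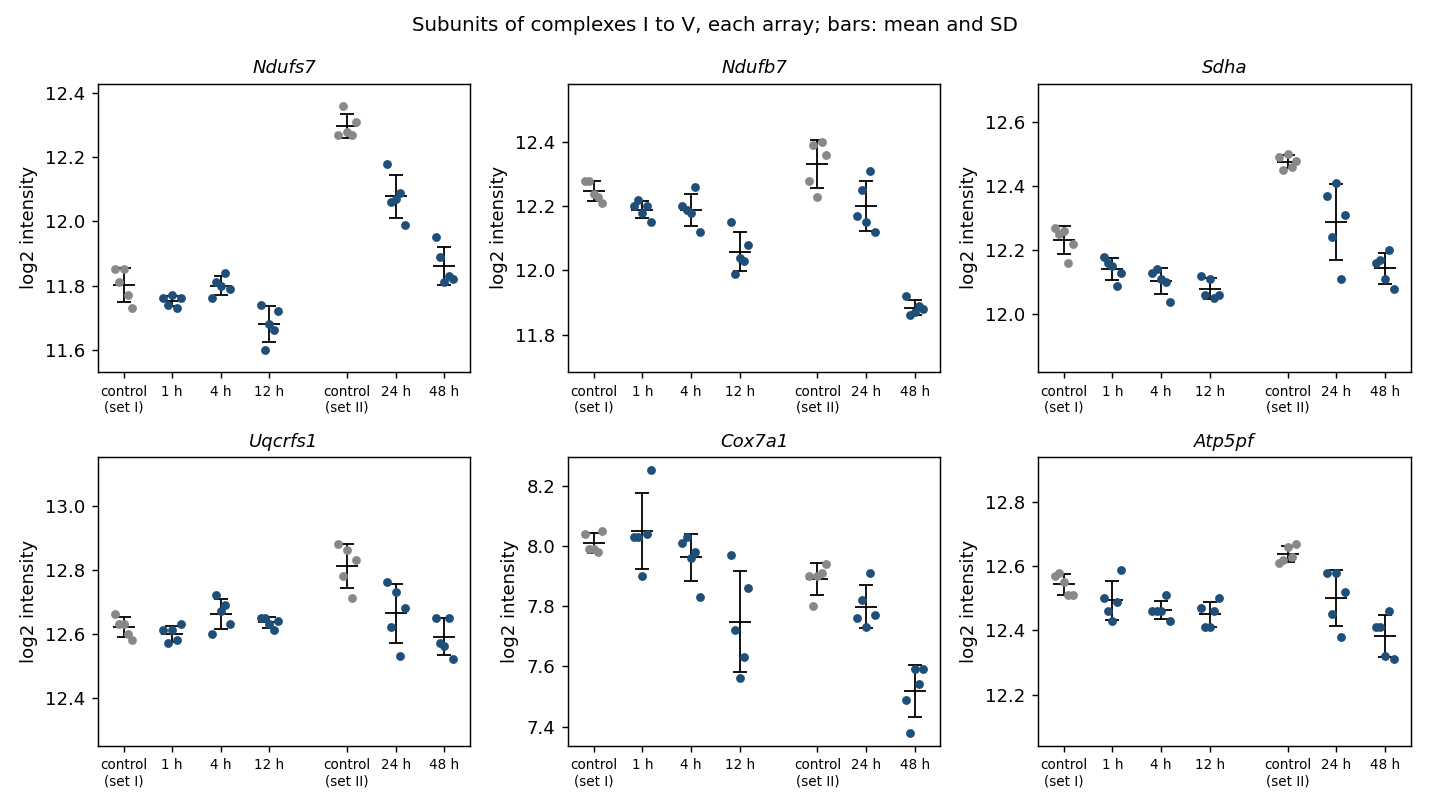
log2 intensity (y axis) of a subunit of each complex, with Ndufb7 as a second one of complex I, on each of the 35 arrays, with group means and SD (n = 5), in control arrays and after each duration of stretch (x axis). In each panel the 5 arrays at 48 h lie below the 5 control arrays of their set, with Ndufs7 at 11.81 to 11.95 and Sdha at 12.08 to 12.20; each panel has its own range.

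Set side by side, the complexes had similar medians at 4 h and lay further apart at 12, 24 and 48 h. At 4 h, 8 of 34, 2 of 4, 1 of 8, 1 of 17 and 5 of 15 subunits of complexes I to V were lower, and complexes V and II had the lowest medians, -0.08 and -0.079. With single arrays left out, these ranged from -0.09 to -0.07 and from -0.094 to -0.069. That of complex III ranged from -0.075 to -0.049, so that the order at 4 h was not resolved. At 12 h, 20 of 34 and 3 of 4 subunits of complexes I and II were lower, with medians of -0.115 and -0.132, against 3 of 8, 3 of 17 and 7 of 15 in complexes III, IV and V, with medians of -0.072, -0.068 and -0.095. With single arrays left out, the 12 h medians of complexes I, II and V ranged from -0.133 to -0.102, -0.147 to -0.128 and -0.106 to -0.084. The order of complex I against II and against V was thus not resolved at 12 h. At 24 h the medians were -0.081, -0.172, -0.05, -0.067 and -0.071 in complexes I to V, with complex II apart from the others. At 48 h the medians were -0.194, -0.275, -0.138, -0.14 and -0.14 in complexes I to V. These are descriptions over genes of unequal brightness and number, and no test over members was made. The 6 subunits with a mean log2 value under 10 all belong to complex IV. The steps between times were tested. No subunit was called between 1 and 4 h (3 were higher and 5 lower at an unadjusted p under 0.05), 4 were lower at 12 h than at 4 h (5.13% of the subunits, and 5.13% of all probe sets), namely Cox6b2, Ndufb3, Ndufb7 and Ndufs8, and 14 were lower at 48 h than at 24 h (background 4.03%), of which 9 belong to complex I, 3 to IV and 1 each to III and V. No subunit was higher at the later time of any of these steps.

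The change at 48 h also differed with brightness. The 20 subunits with a mean log2 value of at least 13 had a median of -0.129, with 12 lower, and the 52 between 10 and 13 had -0.195, with 36 lower. The 6 dimmer ones, all of complex IV, had -0.127, with 2 lower. Across the 72 subunits of at least 10, level and change at 48 h had a Pearson correlation of 0.272 and a Spearman correlation of 0.311, and at 12 h of 0.089 and 0.148. These points share arrays, and the part of brightness in the differences between complexes was not tested. The 7 probe sets that read several genes gave changes between -0.354 and -0.057 at 48 h, all below 0, with a median of -0.21.

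Among the 9 genes that are named like subunits but are not, 1, 2, 2, 3 and 3 were higher and 0, 1, 2, 0 and 1 lower from 1 to 48 h. The shares higher were 11.1%, 22.2%, 22.2%, 33.3% and 33.3%, beside 6.32%, 14.2%, 16.3%, 9.14% and 16.9% of all probe sets. Those lower were 0%, 11.1%, 22.2%, 0% and 11.1%, beside 7.52%, 15.2%, 16.9%, 9.13% and 16.0%. These counts were not tested, and 9 genes are too few to tell most of them from the background. Ndufaf4, an assembly factor of complex I, had 10.40, 10.40, 10.35, 10.47 and 10.33 at 4 h, against 10.09, 10.09, 10.03, 10.13 and 10.03 in control arrays, a rise of 0.31 (SE 0.0440, adjusted p 1.2e-05). It rose at 1 h (0.15, a call lost in 3 of 20 fits that each left out an array) and 12 h (0.22) too, was higher at 4 h than at 1 h by 0.17 (adjusted p 0.0141), and had -0.01 at 24 h and 0.08 at 48 h with no call. Ndufaf5, an enzyme that modifies a complex I subunit during assembly, had 8.43, 8.49, 8.53, 8.41 and 8.48 at 48 h, against 8.05, 8.11, 8.12, 8.29 and 7.95 in control arrays, and rose by 0.37 (adjusted p 0.000251). Ndufaf7, another such enzyme, rose by 0.23 at 48 h and the dim Ndufaf1 by 0.19. Ndufaf3, which works in a pair with Ndufaf4, fell at 4, 12 and 48 h, by 0.21, 0.28 and 0.21. Ndufaf8, another complex I assembly factor, had 8.65, 8.36, 8.45, 8.43 and 8.51 at 12 h, against 8.74, 8.75, 8.68, 8.78 and 8.71 in control arrays, and fell by 0.25 (adjusted p 0.000786). Cox7a2l, which joins complexes into supercomplexes, and Atp5if1, the inhibitor of ATP synthase, were called at no time.

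The rest of the machinery was described from lists of other genes. With 1 probe set per gene, 22.5% of all genes were higher at 48 h and 18.4% lower, which is the background for the list counts. Among genes with a mean log2 value of at least 10 these shares were 31.5% and 22.3%, and the lists were not matched for brightness. In the citric acid cycle and pyruvate dehydrogenase, which feed the chain, 9 of 15 genes were lower at 48 h and 0 higher, among them Idh2 (-0.54), Sucla2 (-0.44) and Idh3g (-0.36), with a list median of -0.174. Of the electron carriers and their reductases, 7 of 12 were lower and 2 higher (median -0.265), led by Coq8a (-0.99), needed for ubiquinone synthesis, and by Etfb (-0.59) and Etfdh (-0.56), which bring in electrons from fatty acid oxidation. Of the carriers and pores of the mitochondrial membranes, 10 of 15 were lower and 1 higher (median -0.17). Mcu, the pore of the calcium uniporter, rose (0.70), and Ucp3 (-0.57) and Slc25a11 (-0.39) fell.

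The gene lists of mitochondrial upkeep did not share these low medians. Their counts of higher genes stand beside 22.5% of all genes and 31.5% of the bright ones. Of 24 genes of the import machinery, 9 were higher and 1 lower at 48 h (median 0.081), with Tomm5 (0.35), Tomm6 (0.31) and Timm21 (-0.29) as the largest changes. Of 12 genes of mitochondrial DNA upkeep and transcription, 5 were higher and 0 lower (median 0.103), led by Tfb1m (0.54), Twnk (0.40) and the factor Nrf1 (0.27). Mitochondrial ribosomal proteins were close to the background of all genes, with 16 of 73 higher and 11 lower (median 0.038). Mrpl38 (0.54), Mrps6 (0.47) and Mrps12 (0.47) rose most. The assembly factors had 7 of 38 higher and 12 lower (median -0.009), and Surf1 (-0.55), Sdhaf4 (-0.40) and Foxred1 (-0.37) had the largest changes. At an unadjusted p under 0.05, limma also had 0 of the citric acid cycle genes higher and 0 of the genes of mitochondrial DNA upkeep lower at 48 h, and no other tool was run on these lists.

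**Figure D5:**
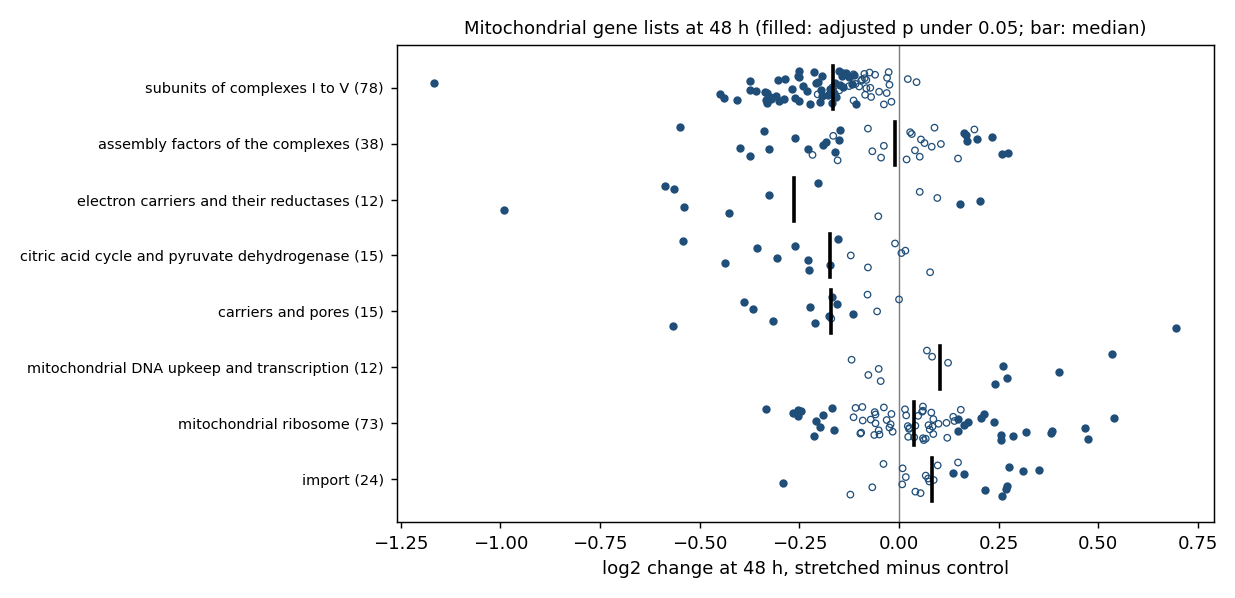
log2 change at 48 h (x axis, stretched minus control) of every measured gene in each of 8 groups of mitochondrial genes (rows, with the number measured in brackets); points are genes, filled where the adjusted p is under 0.05, and black bars are medians. The subunits, electron carriers, citric acid cycle and carriers have medians from -0.265 to -0.165, and mitochondrial DNA upkeep, ribosome and import have medians from 0.038 to 0.103.

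Markers of the myocytes themselves moved at the same times. Of 11 cardiomyocyte markers measured, 7 were lower and 1 higher at 48 h (median -0.239), led by Mb (-1.56), which encodes the oxygen-binding protein myoglobin, and Ckm (-1.14), the muscle creatine kinase, while Tnnt2, Myl2 and Myl3 were not called (-0.07, -0.07 and -0.05) and Myh7 rose (0.46). Their summed intensity was 105700 to 112200 at 48 h, against 123000 to 125900 in control arrays, and 115900 to 120300 at 12 h, against 123900 to 128700. Fibroblast markers had 5 of 8 lower at 48 h (summed intensity 63400 to 71170, against 75020 to 78200), macrophage markers 5 of 7 (1252 to 1372, against 1778 to 1950) and endothelial markers 4 of 5 (1150 to 1296, against 1590 to 2058). Smooth muscle and pericyte markers had 3 of 6 higher, Cnn1, Acta2 and Cspg4, and 1 lower (4081 to 4458, against 2214 to 3176). The part of such shifts in the falls of the subunits was not tested. The signal ratio of the 3' and 5' probe sets of Gapdh, a sign of RNA integrity, overlapped between the groups of the second set, at 0.2402 to 0.6278 (log2) at 48 h, 0.2658 to 0.9531 at 24 h and 0.0924 to 1.0229 in control arrays. Replicate 4 had the highest ratio both in control arrays and at 24 h, for beta-actin too (2.33 and 2.42). At 24 h this array was the lowest of its group in Sdha, Uqcrc2 and Atp5f1a, and the highest in Ndufa3 and Ndufb1. The part of RNA integrity in the changes was not tested.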

How the data were processed

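The authors scanned the arrays with GCOS and normalized them by RMA in GeneSpring GX, and deposited 1 table of linear-scale intensity values for all 35 arrays. A spreadsheet had turned 471 values into dates. They were read back as numbers, and none lay in a member probe set. The 57 array control probe sets were left out. Probe sets were named by the platform annotation, in which 20826 read 1 gene, 436 several and 9780 none. From the log2 intensities, limma 3.58.1 in R 4.3.3 was fitted to each array set with 1 mean per group (16 and 12 residual degrees of freedom), and adjusted over all 31042 probe sets. The control arrays were assigned to sets by the letter in their labels. The exact permutation tests were run in R, and promoter matches and figures were made in Python 3.11.15. The scripts were tested on simulated data. The number of arrays limits the precision, and the intensities have no read depth.

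The members and lists were chosen with earlier results of these data known. Genes were named by rule: in each complex and time the up to 2 largest rises and falls among called genes, all of complex II, all isoform pairs, all past 1.5-fold, and of each other list the 3 largest called changes at 48 h. Other members, the other complex I core subunits, and further markers were named for their values. Alternatives were array centring, quantile normalization, ordinary analysis of variance, an intensity trend, array weights, a filter on dim probe sets, 1 probe set per gene, the mean of all probe sets, converted values as missing, a replicate block, and leaving out each array.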

Additional observations from a re-analysis of the deposited data

Results flagged for a closer look

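Of 182 groups of 5 arrays looked at (5 complex means and 21 genes in 7 groups), 8 had 1 array far from the other 4 by Dixon's limit (0.71 of the range), where chance flags about 1 in 20. After 1 h of stretch, replicate 5 was high in the mean log2 of complex I (12.07, the others 11.98 to 11.99), in that of complex III (12.75, the others 12.71 to 12.72) and in Cox8b (11.60, the others 11.43 to 11.47). Replicate 4 of the first control was low in the mean of complex II (12.23, the others 12.31) and in Sdhd (12.25, the others 12.32 to 12.34). After 48 h, replicate 2 was low in the mean of complex IV (10.79, the others 10.83), in Cox6b2 (7.01, the others 7.25 to 7.35) and in Sdhd (12.25, the others 12.36 to 12.40).

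The change differed between times of a set for 4 subunits at 12 h against 4 h and for 14 at 48 h against 24 h, all lower at the later time (limma, adjusted p under 0.05). Over all probe sets 5.13% and 4.03% were lower in these steps, so that the 4 of 78 are no more than the background. Among the genes described array by array, the later level minus the earlier one was -0.73 for Cox8b, -0.28 for Cox7a1, -0.22 for Ndufs7, -0.32 for Ndufb7 and -0.18 for Atp5po at 48 h against 24 h. At 12 h against 4 h it was -0.29 for Cox6b2, -0.14 for Ndufb7 and -0.14 for Ndufb3, and at 4 h against 1 h it was 0.17 for Ndufaf4.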

How the results depend on the processing

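The larger number of subunits called lower than higher at 4, 12, 24 and 48 h held under every alternative run, and no called change of the 25 genes followed changed sign. With arrays centred on their medians, 0, 7, 24, 10 and 34 subunits were lower at 1, 4, 12, 24 and 48 h, and 2 at 12 h against 4 h. The median of all subunits was then -0.007, -0.033, -0.048 and -0.114 at 1, 4, 24 and 48 h. By complex, the centred medians were -0.060 (II), 0.009 (III, the one that crossed 0) and -0.006 (V) at 1 h, -0.032 (I), -0.043 (III) and -0.057 (V) at 4 h, -0.099 (II), -0.039 (III) and -0.062 (V) at 12 h, -0.051 (I), -0.020 (III) and -0.040 (V) at 24 h, and -0.144, -0.224, -0.087, -0.090 and -0.089 (I to V) at 48 h. Centring ended the calls of Cox8b and Ndufb3 at 1 h, Atp5f1a, Atp5po, Ndufa9 and Ndufc1 at 4 h, Ndufs7 and Sdhb at 12 h, Atp5f1a and Atp5f1c at 24 h and Cox6b2 at 48 h. With quantile normalization within each set, 27 were lower at 4 h, 52 at 12 h and 52 at 48 h, and 0 were higher at 4 or 12 h, with the 48 h call of Cox6b2 lost as well. The medians were -0.107 (II) and -0.073 (all) at 4 h, -0.157 (I), -0.169 (II), -0.108 (III) and -0.138 (V) at 12 h, and -0.106 (V) at 24 h. Ordinary analysis of variance called 11, 33 and 30 lower at 1, 4 and 24 h, and 5, 12 and 29 lower in the steps to 4, 12 and 48 h. An intensity trend in the variance prior called 11, 33 and 28, and 3, 12 and 26 in the steps. At 1 h, array weights gave 8 lower, the filter on dim probe sets 7 and adjustment over 1 probe set per gene 6. Between 1 and 4 h, array weights gave 2 higher, and the dim filter 1 higher and 1 lower. From 4 to 12 h, the dim filter gave 8 lower and 1 probe set per gene 7. The mean of all probe sets of a gene gave 2 higher at 4 h, and ended the calls of Uqcrc2 at 4 to 48 h, Atp5po at 4, 12 and 48 h, Ndufa9 at 4 and 12 h and Sdhd at 4 h. It cannot change the isoform pairs, whose genes have 1 probe set each. With the other genes counted by prefix, the complex IV median at 48 h was -0.095, and means in place of medians were -0.203 for complex IV and -0.194 for all subunits. The cause of these differences was not tested.

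The study's methods say that stretch was begun stepwise within a culture, but the labels do not say whether same-numbered arrays share one. Same-numbered arrays had correlated deviations above 0.1 in 6 of 30 pairs of the first set and 6 of 15 of the second. The median correlations were -0.003 and -0.04, and the largest in the second set was 0.539. The main fit took the arrays as unpaired, and whether they are paired was not settled. With the replicate block, 1 subunit was lower at 1 h and 0 were higher at 4 h, and all other counts stayed within 1.5 times. For the isoform pairs the block cannot reach a p under 0.0625. Leaving out each array gave 0 to 2 subunits lower at 1 h, 11 to 19 at 4 h (11 without control replicates 1 or 5 or stretched replicate 3), 30 to 41 at 12 h, 10 to 18 at 24 h (10 without control replicate 1 or stretched replicate 2) and 44 to 51 at 48 h, 0 to 1 higher at 4 h and at 12 h, 0 to 1 higher at 4 h against 1 h, 2 to 7 lower at 12 h against 4 h (2 without stretched 12 h replicates 2 or 4, 7 without replicate 1), and a complex V median of -0.149 to -0.125 at 48 h.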
